A study of Danio rerio with 20 samples.

Results

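Transcript levels of 4 genes for cell-to-cell adhesion were followed through caudal fin regeneration in adult zebrafish: cdh2 (ENSDARG00000018693), ctnna2 (ENSDARG00000024785), ctnnd2a (ENSDARG00000062415) and ncam1b (ENSDARG00000007220). They were taken by symbol from the gene tables of the study and matched by gene identifier in both count tables, which gave 4 of 32105 genes. Each was found once in each table, and all 4 passed the filter on low counts in both experiments, which kept 20157 genes in fins and 18641 genes in sorted cells. The group was named for mesenchymal adhesion. Reads were many for cdh2 and few for ctnna2, ctnnd2a and ncam1b.

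Classical cadherins hold neighbouring cells together through calcium-dependent binding of their outer parts, and catenins tie their inner tails to actin. cdh2 encodes N-cadherin, the classical cadherin of neural and mesenchymal tissue, and a change from E-cadherin (cdh1) to N-cadherin is the textbook sign of an epithelial to mesenchymal transition. ctnna2 encodes alpha N-catenin, which links the cadherin complex to actin and is best known from neurons. ctnnd2a encodes a zebrafish copy of delta 2 catenin, a relative of p120-catenin that binds the part of the cadherin tail next to the membrane. ncam1b encodes one of the zebrafish copies of NCAM1, a neural cell adhesion molecule of the immunoglobulin superfamily that works without calcium and can carry polysialic acid, a sugar chain that weakens its grip. In the amputated fin, stump cells loosen from their tissue and gather below the wound epidermis as the blastema, which then grows and forms new bone rays.

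The data were 20 RNA-seq libraries from 2 experiments, with 2 libraries in each of 10 groups. In the first, unsorted caudal fin tissue came from fosl1a mutants (knockout by CRISPR-Cas9) and wildtype fish, as uninjured fin at 0 dpa (days post amputation) and as blastema at 1 and 4 dpa. fosl1a encodes the AP-1 transcription factor Fra1. In the second, Tg(sp7:EGFP) fish, which express EGFP under sp7 regulatory regions in bone-forming osteoblasts, gave sp7+ and sp7- cells by fluorescence-activated cell sorting from 4 dpa blastema and from 0 dpa uninjured fins. The study's methods pooled many fins for each sorted replicate, cut the 4 dpa tissue along the amputation plane, and used Liberase only at 0 dpa and a longer TrypLE treatment at 4 dpa, so in sorted cells tissue and dissociation cannot be told apart from time. In unsorted fins, too, uninjured fin was compared with blastema. There tissue cannot be told apart from time between 0 dpa and the later times. The labels do not say whether the fin libraries came from separate fish, and the p-values then measure only the spread between these libraries.

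Library totals lay between 10194983 and 31507208 counts in fins and between 28906309 and 50312755 counts in sorted cells. Levels below are CPM (counts for every 1000000 counts of a library) after TMM scaling, which corrects library size for differences in composition. The 6 osteoblast markers summed to 33643 and 51850 CPM in sp7+ cells at 4 dpa, against 2169 and 3134 CPM in sp7- cells, and to 1995 and 6182 CPM in sp7+ cells at 0 dpa, against 53.3 and 68.2 CPM in sp7- cells. The sp7+ libraries also held much RNA of 6 epidermal markers, 82620 and 97141 CPM at 0 dpa. In fins, replicate 1 of the fosl1a mutant at 0 dpa stood apart: it was the shallowest library and its osteoblast markers summed to 713 CPM, against 3026 CPM in the other mutant library and 2671 to 2971 CPM in wildtype. It also held the lowest level of cdh2, ctnna2 and ctnnd2a among all fin libraries. The results of the 4 members at 0 dpa are therefore given with and without it. Those of fosl1a, the markers and the lists of other adhesion genes are given only with it. These are bulk samples, in which fewer cells of a type and less RNA per cell cannot be told apart.

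The targeted gene was examined first. fosl1a (ENSDARG00000015355) had 11.1 and 9.20 CPM in mutant fins at 0 dpa, 34.2 and 46.1 CPM at 1 dpa, and 2.24 and 2.98 CPM at 4 dpa. In wildtype fins it had 2.71 and 3.96 CPM at 0 dpa, 119 and 140.2 CPM at 1 dpa, and 2.31 and 3.40 CPM at 4 dpa. The transcript was thus lower in mutants at 1 dpa, higher at 0 dpa, and at overlapping levels at 4 dpa. By edgeR's quasi-likelihood test with Benjamini-Hochberg adjustment, the mutant difference on the log2 scale was -1.69 (SE 0.25, adjusted p = 0.0122) at 1 dpa and 1.61 (SE 0.27, adjusted p = 0.0281) at 0 dpa. Counts over whole genes do not show an edited allele, so this level is no check of the genotype labels. In sorted cells, a separate table, fosl1a stood at 399 and 225 CPM in sp7+ cells and 337 and 368 CPM in sp7- cells at 4 dpa, and at 1286 to 1464 CPM in the 4 libraries of 0 dpa.

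cdh2, the N-cadherin gene, stood higher at 4 dpa than at 0 dpa in both genotypes. It had 21.0 and 45.3 CPM in mutant fins at 0 dpa, 32.8 and 32.8 CPM at 1 dpa, and 235 and 177 CPM at 4 dpa. Wildtype fins had 38.6 and 36.1 CPM at 0 dpa, 54.2 and 54.5 CPM at 1 dpa, and 128 and 126 CPM at 4 dpa. All 4 libraries of 4 dpa therefore lay above every earlier library, and the mutant was highest at 4 dpa but below wildtype at 1 dpa. In mutants the level at 4 dpa exceeded that at 0 dpa by 2.63 on the log2 scale (SE 0.30, adjusted p = 0.00072) and that at 1 dpa by 2.65 (SE 0.30, adjusted p = 0.000938), each tested against a 2-fold change with edgeR's quasi-likelihood test and Benjamini-Hochberg adjustment over all genes. In wildtype the increase over 0 dpa was 1.76 (SE 0.29, adjusted p = 0.0279). Without any single one of the 6 wildtype libraries this call was lost: the change was 1.72 to 1.83 with adjusted p of 0.0546 to 0.104, and DESeq2's Wald test gave adjusted p = 0.144, the highest of all alternatives (lowest 0.00071). The wildtype change from 0 to 1 dpa was 0.54 (SE 0.29, adjusted p = 1), and that from 1 to 4 dpa was 1.22 (SE 0.29, adjusted p = 0.487). Without the mutant library that stood apart, the mutant increase from 0 to 4 dpa was 2.19, and without the other one it was 3.31, and both passed.

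ctnna2, the alpha N-catenin gene, followed a similar course on far fewer reads. Mutant fins had 0 and 0.592 CPM at 0 dpa, 0.430 and 0.262 CPM at 1 dpa, and 4.76 and 3.47 CPM at 4 dpa. Wildtype fins had 0.595 and 0.298 CPM at 0 dpa, 0.945 and 0.864 CPM at 1 dpa, and 1.66 and 2.65 CPM at 4 dpa. These levels rest on 0 to 29 reads per library at 0 and 1 dpa and on 33 to 121 at 4 dpa. The 4 dpa libraries again lay above all earlier ones, the mutant above the wildtype, and at 1 dpa the mutant lay below the wildtype. In mutants ctnna2 rose by 3.51 (log2, SE 0.63, adjusted p = 0.00622) from 0 to 4 dpa and by 3.57 (SE 0.63, adjusted p = 0.00834) from 1 to 4 dpa by edgeR's quasi-likelihood test against 2-fold. The size of the change from 0 dpa depended on the 0 dpa libraries, being 2.80 without replicate 1 and a fitted 9.59, which is no bound, without replicate 2, where the library left had 0 reads. The call against 1 dpa was lost without mutant replicate 2 of 1 dpa (3.25, adjusted p = 0.0843) and without mutant replicate 1 of 4 dpa (3.33, adjusted p = 0.0581), and over all alternatives the adjusted p ran from 0.000163 to 0.0843. In wildtype the change from 0 to 4 dpa was 2.22 (SE 0.58) and did not pass (adjusted p = 0.0757). It passed without the filter (2.26, adjusted p = 0.0254), in a fit of only these groups (2.21, adjusted p = 0.0262), against no change (adjusted p = 0.00917) and without either mutant library of 0 dpa (2.22, adjusted p = 0.0126), within a range of 0.00917 to 0.315 over all alternatives.

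ctnnd2a, the delta 2 catenin gene, was low at 0 and 1 dpa and rose by 4 dpa in both genotypes. Mutant fins had 0.0788 and 0.547 CPM at 0 dpa, 0.491 and 0.680 CPM at 1 dpa, and 8.49 and 7.19 CPM at 4 dpa. Wildtype fins had 1.31 and 0.725 CPM at 0 dpa, 0.619 and 0.288 CPM at 1 dpa, and 5.32 and 4.57 CPM at 4 dpa. The 4 libraries of 4 dpa thus stood far above the other 8, at 106 to 216 reads each, and the mutant was above wildtype there and below it at 0 dpa. By edgeR's quasi-likelihood test against 2-fold, ctnnd2a rose by 4.41 (log2, SE 0.50, adjusted p = 0.000283) in mutants and by 2.24 (SE 0.41, adjusted p = 0.0174) in wildtype from 0 to 4 dpa. From 1 to 4 dpa it rose by 3.72 (SE 0.46, adjusted p = 0.000891) in mutants and by 3.39 (SE 0.45, adjusted p = 0.00136) in wildtype. Both increases from 1 dpa and the mutant increase from 0 dpa passed in every fit that left out a library. The mutant increase from 0 dpa was 3.84 without replicate 1 and 6.56 without replicate 2 of the mutant at 0 dpa. The wildtype increase from 0 dpa was lost without wildtype replicate 2 of 0 dpa (1.95, adjusted p = 0.110), without wildtype replicate 1 of 4 dpa (2.18, adjusted p = 0.0714) and with DESeq2 (2.25, adjusted p = 0.0552), and its adjusted p ran from 0.00125 to 0.110 over all alternatives.

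ncam1b, the NCAM1 copy, took another course, with levels at 4 dpa that overlapped those of the uninjured fin. Mutant fins had 0.867 and 0.683 CPM at 0 dpa, 0.491 and 0.262 CPM at 1 dpa, and 1.06 and 0.572 CPM at 4 dpa. Wildtype fins had 0.565 and 0.852 CPM at 0 dpa, 0.195 and 0.0412 CPM at 1 dpa, and 0.602 and 0.468 CPM at 4 dpa. In both genotypes the 1 dpa libraries were the lowest, below both of 0 dpa as for 31.6% of all genes in mutants and 40.3% in wildtype, and below both of 4 dpa. The sums of osteoblast and Schwann cell markers were also below those of 0 dpa at 1 dpa. Unlike ncam1b, the Schwann cell sums were lower still at 4 dpa. They were 39.7 and 42.0 CPM in mutants and 24.0 and 26.4 CPM in wildtype then. The osteoblast markers summed to 184 and 196 CPM in mutants and 141 and 192 CPM in wildtype at 1 dpa, with 3 of 6 called lower than at 0 dpa in mutants and 4 of 6 in wildtype. The Schwann cell markers summed to 69.0 and 71.0 CPM in mutants and 80.0 and 82.4 CPM in wildtype at 1 dpa. Of these, 3 of 5 were called lower than at 0 dpa in mutants and 4 of 5 in wildtype. The sums of the 4 neuron markers went the other way. They were 40.7 and 88.8 CPM in mutants at 1 dpa, against 1.26 and 2.87 CPM at 0 dpa. In wildtype they were 84.9 and 135 CPM, against 1.99 and 2.98 CPM. In each genotype 1 of 2 tested neuron markers (gap43) was called higher than at 0 dpa. Of all genes, 5.24% were called lower at 1 dpa in mutants and 8.95% in wildtype. Called higher were 4.78% in mutants and 6.32% in wildtype. The part of these markers in the low levels of ncam1b was not tested. With 1 to 27 reads per library, no fin comparison of ncam1b passed in the fit over all 12 libraries. The largest difference was in wildtype at 1 dpa, where ncam1b was lower than at 0 dpa, with a log2 change of -2.43 (SE 0.63, adjusted p = 0.0541, edgeR's quasi-likelihood test against 2-fold). That value passed with a replicate block (adjusted p = 0.0459), in a fit of only the groups compared (adjusted p = 0.0488), against no change (adjusted p = 0.00851), without the mutant library that stood apart (adjusted p = 0.0487) and without wildtype replicate 1 of 1 dpa (-3.90, adjusted p = 0.0452). Over all alternatives the adjusted p ran from 0.00851 to 0.408.

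**Figure D1:**
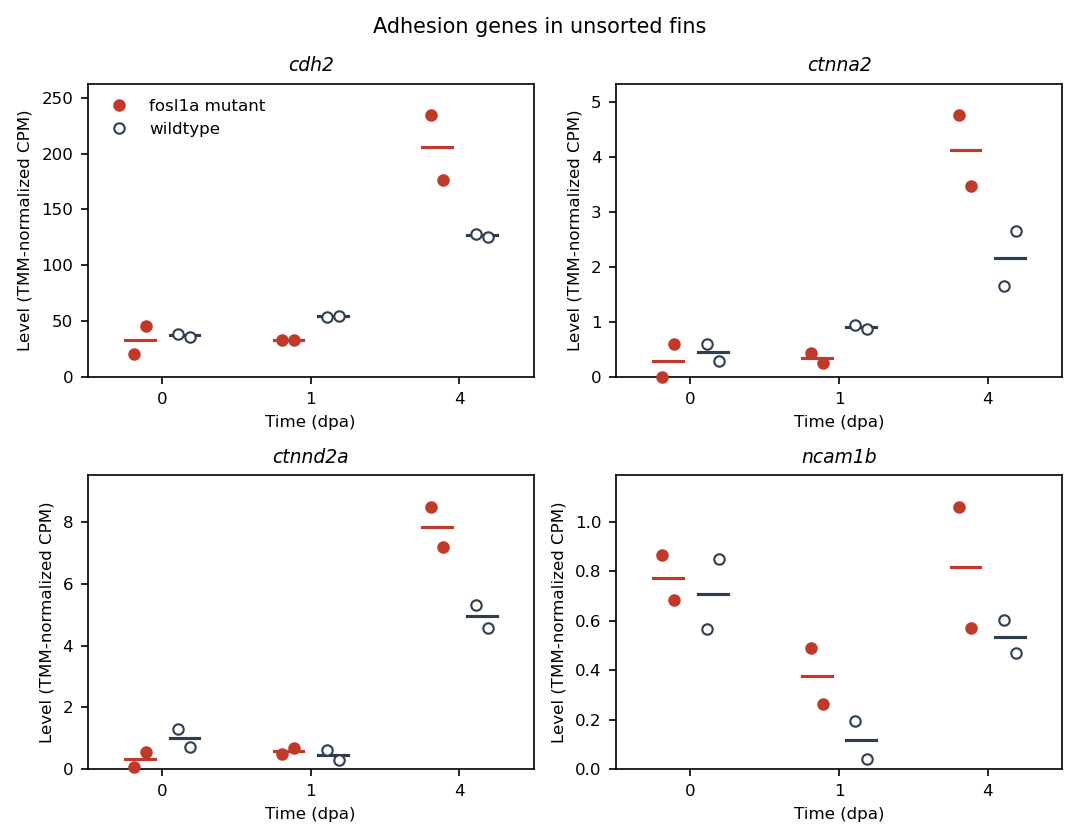
Level of cdh2, ctnna2, ctnnd2a and ncam1b in unsorted fins, in TMM-normalized CPM, against time in dpa. Points are single libraries (filled, fosl1a mutant; open, wildtype) and bars are means of 2. cdh2 reached 235 and 177 CPM in the mutant at 4 dpa, above all wildtype libraries, while ncam1b stayed near or below 1 CPM.

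Of the 4 genes, cdh2, ctnna2 and ctnnd2a rose from 0 to 4 dpa in mutants, where 6.93% of all genes tested were called higher, and cdh2 and ctnnd2a rose in wildtype, where 6.69% were. From 1 to 4 dpa the same 3 genes rose in mutants (5.98% of all genes) and ctnnd2a rose in wildtype (5.84%). No member was called between 0 and 1 dpa in mutants, where 10% of all genes were called, or in wildtype, where 15.3% were. At an unadjusted p under 0.05 against no change, 0 of the 4 would have passed in mutants and 2 in wildtype (ncam1b and ctnnd2a, both lower at 1 dpa), and DESeq2 called 0 in each. Both libraries of 4 dpa lay above both of 0 dpa for cdh2, ctnna2 and ctnnd2a in each genotype, as they did for 35.1% of all genes in mutants and 38.4% in wildtype. Both also lay above both of 1 dpa for all 4 members, as for 35.7% of genes in mutants and 37.8% in wildtype. Markers moved with time too: the 7 fin mesenchyme and blastema markers summed to 6269 and 7708 CPM in mutants and 3992 and 4882 CPM in wildtype at 4 dpa, against 138 to 203 CPM in mutants and 209 to 368 CPM in wildtype at 0 dpa. Of these 7, 5 rose from 0 to 4 dpa in each genotype (prrx1b, msx1b, msx2b, tnc and and1). The osteoblast markers summed to 16372 and 22296 CPM in mutants and 16416 and 23560 CPM in wildtype at 4 dpa, against the sums of 0 dpa given above, and in each genotype sp7 and col10a1a were called higher and bglap lower. The Schwann cell markers summed to 39.7 and 42.0 CPM in mutants at 4 dpa, against 112 and 142 CPM at 0 dpa, and to 24.0 and 26.4 CPM in wildtype, against 121 and 128 CPM, with 3 of 5 called lower in mutants and 5 of 5 in wildtype. The epidermal markers summed to 73422 and 87730 CPM in mutants at 4 dpa, against 98061 and 185348 CPM at 0 dpa, and to 53688 and 59938 CPM in wildtype, against 119208 and 144263 CPM, with 0 of 6 called. Of all genes, 8.06% were called lower from 0 to 4 dpa in mutants and 4.78% in wildtype. The part of these cell types in the changes of the adhesion genes was not tested.

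The comparison of fosl1a mutant with wildtype fins sets levels against genotype at each time. The study reported slower regeneration in fosl1a mutants. At equal dpa after amputation, loss of the factor and stage of regeneration therefore cannot be told apart. At 4 dpa all 4 genes had a positive difference, cdh2 of 0.70 (SE 0.28, adjusted p = 0.0854), ctnna2 of 0.92 (SE 0.48, adjusted p = 0.171), ctnnd2a of 0.67 (SE 0.36, adjusted p = 0.181) and ncam1b of 0.62 (SE 0.52, adjusted p = 0.390), on the log2 scale by edgeR's quasi-likelihood test with Benjamini-Hochberg adjustment. None passed, although 29.4% of all genes tested were called at this time (12.7% higher and 16.8% lower). Both mutant libraries lay above both wildtype libraries for cdh2, ctnna2 and ctnnd2a, as they did for 32.9% of all genes, and the libraries of ncam1b overlapped. The call for cdh2 depended on the settings. It passed with DESeq2 (0.76, adjusted p = 0.0398), without the filter on low counts (0.73, adjusted p = 0.0454), in a fit of the 4 dpa libraries alone (0.74, adjusted p = 0.00836) and without either mutant library of 0 dpa (0.71 without replicate 1, adjusted p = 0.00518, and 0.70 without replicate 2, adjusted p = 0.00529), and its adjusted p ran from 0.00518 to 0.398 over all alternatives. In the fit of 4 dpa libraries alone ctnna2 (0.96, adjusted p = 0.0184) and ctnnd2a (0.71, adjusted p = 0.0156) passed as well, and ctnna2 also passed without replicate 1 (0.93, adjusted p = 0.0373) or replicate 2 (0.92, adjusted p = 0.04) of the mutant at 0 dpa. Over all alternatives the adjusted p ran from 0.0184 to 0.516 for ctnna2 and from 0.0156 to 0.488 for ctnnd2a. Scaling with DESeq2 size factors moved these 4 differences by 0.06 to 0.07 and turned none. Beside these values, markers of several cell types moved at 4 dpa. In mutants 1 of 2 tested neuron markers (gap43) and 3 of 5 Schwann cell markers (mpz, mbpa and erbb3b) were called higher. The 4 neuron markers summed to 7.90 and 15.4 CPM in mutants, against 3.92 and 4.18 CPM in wildtype, and the 5 Schwann cell markers to 39.7 and 42.0 CPM in mutants, against 24.0 and 26.4 CPM in wildtype. Of 6 epidermal markers tp63 was called higher and epcam lower, with sums of 73422 and 87730 CPM in mutants, against 53688 and 59938 CPM in wildtype. Of 4 leukocyte markers lcp1 was called higher, with sums of 134 and 168 CPM in mutants, against 96.9 and 101 CPM in wildtype. Of 6 osteoblast markers runx2b was called higher and bglap lower, and the sums overlapped. The 7 mesenchyme and blastema markers summed to 6269 and 7708 CPM in mutants, against 3992 and 4882 CPM in wildtype. These sums did not overlap, and 0 of the 7 were called between the genotypes. The part of these markers in the differences was not tested.

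At 1 dpa the values of cdh2 and ctnna2 were negative. The difference was -0.73 for cdh2 (SE 0.29, adjusted p = 0.272) and -1.40 for ctnna2 (SE 0.71, adjusted p = 0.394), while that of ncam1b was 1.52 (SE 0.73, adjusted p = 0.370) and that of ctnnd2a 0.34 (SE 0.58, adjusted p = 0.843) by edgeR's quasi-likelihood test with Benjamini-Hochberg adjustment. No member passed, at a background of 1.23% of genes called. Both mutant libraries were below both wildtype libraries for cdh2 and ctnna2 (24.9% of all genes), above them for ncam1b (28.6%), and overlapped for ctnnd2a. In a fit of the 1 dpa libraries alone cdh2 passed (-0.74, adjusted p = 0.0308), and so it did without mutant replicate 1 (-0.76, adjusted p = 0.0266) or replicate 2 (-0.73, adjusted p = 0.0287) of 0 dpa, within a range of 0.0266 to 0.657 over all alternatives. The mesenchyme and blastema markers summed to 463 and 606 CPM in mutants, against 743 and 912 CPM in wildtype, at this time, and 0 of the 7 were called.

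At 0 dpa no member passed, and 0.352% of all genes were called. The difference was -1.51 for ctnnd2a (SE 0.57, adjusted p = 0.542, edgeR's quasi-likelihood test), whose mutant libraries both lay below wildtype as those of 14.4% of all genes did, and between -0.37 and 0.13 for cdh2, ctnna2 and ncam1b, whose libraries overlapped. Without mutant replicate 1 the difference of ctnnd2a was -0.92, and those of cdh2, ctnna2 and ncam1b were 0.29, 0.35 and -0.02, each of the other sign. Without mutant replicate 2 cdh2 (-0.84, adjusted p = 0.0369) and ctnnd2a (-3.65, adjusted p = 0.0428) passed, with the library that stood apart as the only one of its group, assumed to vary like the other groups. Over all alternatives the lowest adjusted p was that of this fit for both genes, and the highest was 1.

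The change over time was then set against genotype. Between 1 and 4 dpa cdh2 rose more in mutants than in wildtype, by 1.43 on the log2 scale (SE 0.40, adjusted p = 0.0317, edgeR's quasi-likelihood test with Benjamini-Hochberg adjustment). Here 9.31% of all genes were called in that direction and 44.9% had a value above 0. The median over all genes was -0.15. ctnna2 had a difference of 2.32 (SE 0.85, adjusted p = 0.0706), which passed with DESeq2 (2.44, adjusted p = 0.0208), without the filter (2.38, adjusted p = 0.0249) and in a fit of only these groups (2.43, adjusted p = 0.00683), within a range of 0.00683 to 0.198 over all alternatives. The values of ctnnd2a (0.33, adjusted p = 0.749) and ncam1b (-0.90, adjusted p = 0.472) did not pass. The call of cdh2 was lost, with values of 1.21 to 1.57 and adjusted p of 0.0643 to 0.121, without either mutant library of 1 dpa, either wildtype library of 1 dpa, mutant replicate 1 of 4 dpa, or either wildtype library of 4 dpa, and the lowest adjusted p of any alternative was 0.00119. This comparison was added after the others had been seen.

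Between 0 and 4 dpa ctnnd2a rose more in mutants, by 2.17 (SE 0.67, adjusted p = 0.0463, edgeR's quasi-likelihood test), with 8.32% of all genes called in that direction. This call stood at the edge of the threshold. It was lost in 11 of the 12 fits that left out a library (1.61 to 2.52, adjusted p = 0.0554 to 0.153), with a replicate block (2.11, adjusted p = 0.0538) and in a fit of only these groups (2.17, adjusted p = 0.0753), all by edgeR's quasi-likelihood test. Of the fits that left out a library, only the one without mutant replicate 2 of 0 dpa kept it (4.32, adjusted p = 0.00575). It also passed with DESeq2 (2.24, adjusted p = 0.0118), without the filter (2.20, adjusted p = 0.016), with a stricter filter of 1 CPM in 2 libraries (2.16, adjusted p = 0.0444) and with DESeq2 size factors in edgeR (2.21, adjusted p = 0.0438). cdh2 had a difference of 0.86 (SE 0.40, adjusted p = 0.148), ctnna2 of 1.29 (SE 0.89, adjusted p = 0.327) and ncam1b of 0.49 (SE 0.73, adjusted p = 0.656). These values turned on the mutant libraries of 0 dpa. Without replicate 1, which stood apart, the difference was 0.43 for cdh2 (adjusted p = 0.294), 0.58 for ctnna2 (adjusted p = 0.599) and 1.61 for ctnnd2a (adjusted p = 0.0922). Without replicate 2 cdh2 passed (1.54, adjusted p = 0.00174), and so did ctnna2 (adjusted p = 0.0108), whose fitted 7.37 is no bound because the library left had 0 reads. Between 0 and 1 dpa no difference in change passed (adjusted p = 0.514 to 0.878, with 0.506% of all genes called).

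**Figure D2:**
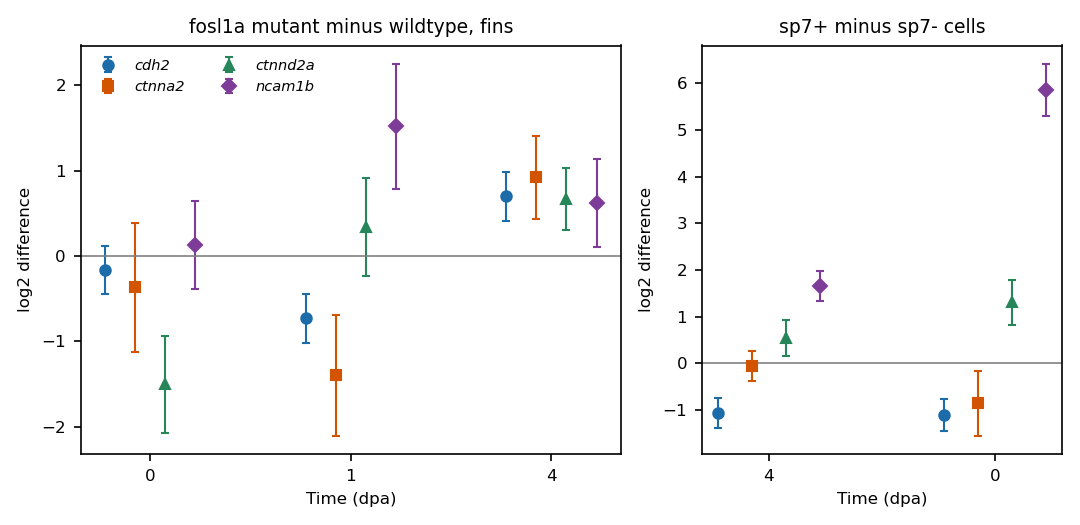
Log2 difference between fosl1a mutant and wildtype fins (left) and between sp7+ and sp7- cells (right) against time in dpa; points are edgeR estimates and bars their standard errors. At 4 dpa the 4 genotype differences lie between 0.62 and 0.92, and the largest sp7 difference is that of ncam1b at 0 dpa (5.86).

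In sorted cells cdh2 and ncam1b lay apart between the populations at both times, in opposite directions. cdh2, the N-cadherin gene, had 51.0 and 56.6 CPM in sp7+ cells at 4 dpa, against 115 and 109.5 CPM in sp7- cells, and 3.33 and 8.29 CPM in sp7+ cells at 0 dpa, against 10.3 and 14.7 CPM in sp7- cells. The populations did not overlap at either time, with both sp7+ libraries below both sp7- libraries for 31.1% of all genes at 4 dpa and 36.5% at 0 dpa. The difference was -1.06 (log2, SE 0.32) at 4 dpa and -1.10 (SE 0.34) at 0 dpa, close to 2-fold, and did not pass edgeR's test against a 2-fold change (adjusted p = 0.889 and 0.485), though it passed against no change (adjusted p = 0.0329 and 0.0203). At each time the adjusted p reached 1 under other alternatives. The 7 mesenchyme markers summed to 1827 and 2140 CPM in sp7+ cells at 4 dpa, against 5871 and 5874 CPM in sp7- cells. At 0 dpa the sums were 87.9 and 156 CPM in sp7+ cells, against 161 and 238 CPM in sp7- cells. Of the 7, only and1 was called lower in sp7+ cells at each time, and 0 were called higher. The median log2 difference of the 7 was -0.77 at 4 dpa but 0.29 at 0 dpa. Of all genes, 3.14% were called lower at 4 dpa and 8.44% at 0 dpa. The part of these markers in the cdh2 difference was not tested.

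ncam1b, the NCAM1 copy, was called higher in sp7+ cells at 0 dpa. It had 4.15 and 5.79 CPM in sp7+ cells at 4 dpa, against 1.29 and 1.86 CPM in sp7- cells, and 2.17 and 2.91 CPM in sp7+ cells at 0 dpa, against 0.0629 and 0.0241 CPM in sp7- cells. Both sp7+ libraries lay above both sp7- libraries at each time, as for 31.8% of all genes at 4 dpa and 31.8% at 0 dpa. At 0 dpa that was 122 reads in the 2 sp7+ libraries and 3 in the 2 sp7- libraries, a ratio of scaled levels of 62.5 with an exact 95% interval of 20.9 to 307 that covers counting error only. By edgeR's quasi-likelihood test against 2-fold, ncam1b was called higher in sp7+ cells at 0 dpa (adjusted p = 2.17e-05), as 9.56% of all genes were, and it was the only member called there. The tables that paired its symbol held genes changed over time in these same libraries, among them the low sp7- libraries of 0 dpa. The call is therefore not independent of how the gene was chosen. At 4 dpa the difference was 1.66 (SE 0.32, adjusted p = 0.0726). It passed with the replicate number as a block within each time point (adjusted p = 0.0262), which pairs the populations sorted from the same fins, within a range of 0.00219 to 0.672 over all alternatives. Without the block 5.87% of all genes were called higher there. Neural markers stood beside it: 2 of 4 neuron markers (elavl4 and gap43) and 1 of 2 tested Schwann cell markers (sox10) were called higher in sp7+ cells at 0 dpa, with sums of 8.69 and 13.0 CPM in sp7+ cells, against 2.51 and 2.86 CPM in sp7- cells, for the neuron markers. For the 5 Schwann cell markers the sums were 173 and 177 CPM in sp7+ cells, against 87.4 and 94.1 CPM in sp7- cells. Only sox10 and erbb3b of these passed the filter on low counts, and erbb3b was not called at 0 dpa. At 4 dpa 0 of 4 neuron markers were called, with overlapping sums of 7.56 and 10.2 CPM in sp7+ cells and 6.37 and 7.61 CPM in sp7- cells. The Schwann cell marker sox10 was called higher there too, as 1 of 2 tested. Of the 6 osteoblast markers, whose sums are given above, 4 were called higher in sp7+ cells at each time (sp7, bglap, spp1 and col10a1a). The part of these markers in the ncam1b difference was not tested.

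Neither catenin gene was called between the populations. ctnna2 had 1.59 and 2.26 CPM in sp7+ cells at 4 dpa, against 2.27 and 1.72 CPM in sp7- cells, and 0.0888 and 0.120 CPM in sp7+ cells at 0 dpa, against 0.220 and 0.169 CPM in sp7- cells. ctnnd2a had 6.41 and 6.62 CPM in sp7+ cells at 4 dpa, against 5.37 and 3.58 CPM in sp7- cells, and 0.843 and 2.71 CPM in sp7+ cells at 0 dpa, against 0.881 and 0.580 CPM in sp7- cells. The populations overlapped for ctnna2 at 4 dpa and for ctnnd2a at 0 dpa. At 4 dpa both sp7+ libraries lay above both sp7- libraries for ctnnd2a, as for 31.8% of all genes. At 0 dpa both lay below for ctnna2, as for 36.5% of all genes. There ctnna2 rested on 2 and 3 reads in sp7+ cells, against 7 and 7 in sp7- cells. Neither passed at 4 dpa (ctnna2 -0.06, adjusted p = 1; ctnnd2a 0.54 with SE 0.38, adjusted p = 1) or at 0 dpa (ctnna2 -0.86 with SE 0.69, adjusted p = 0.812; ctnnd2a 1.31 with SE 0.48, adjusted p = 0.350) by edgeR's quasi-likelihood test against 2-fold. The 2 sp7+ libraries of 0 dpa stood far apart for ctnnd2a, and without replicate 1 the gene passed (1.91, adjusted p = 0.0354). Without replicate 2 the cdh2 difference at 0 dpa passed (-1.92, adjusted p = 0.00912), and both genes had an adjusted p of 1 under other alternatives.

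**Figure D3:**
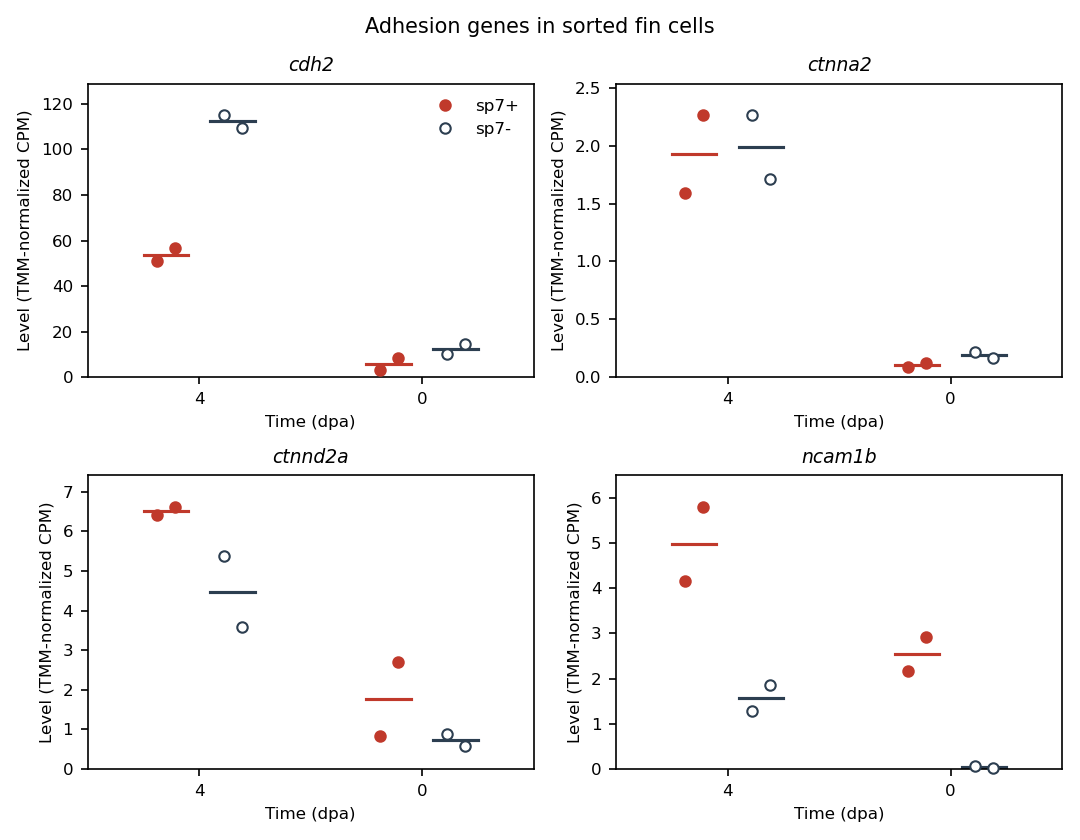
Level of the 4 genes in sorted cells, in TMM-normalized CPM, at 4 and 0 dpa. Points are single libraries (filled, sp7+; open, sp7-) and bars are means of 2. All cdh2 points of sp7+ cells lie below those of sp7- cells at the same time, and ncam1b lies at 2.17 and 2.91 CPM in sp7+ cells and near 0 in sp7- cells at 0 dpa.

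In each sorted population both libraries of 4 dpa lay above both of 0 dpa for all 4 genes. The same held for 42.6% of all genes in sp7+ cells and 38.6% in sp7- cells. The changes of the members are a description with no test. Their symbols were paired with identifiers through tables of genes that changed in these very libraries. On the log2 scale the change in sp7+ cells was 3.21 for cdh2, 4.15 for ctnna2, 1.86 for ctnnd2a and 0.96 for ncam1b, and in sp7- cells 3.16 for cdh2, 3.36 for ctnna2, 2.63 for ctnnd2a and 5.16 for ncam1b. For ctnna2 in sp7+ cells this rests on 194 reads at 4 dpa and 5 reads at 0 dpa, a ratio of scaled levels of 17.7. For ncam1b in sp7- cells it rests on 185 and 3 reads, a ratio of 37.9. With so few reads at 0 dpa, neither ratio is precise. Of all genes, 27.4% were called in sp7+ cells (14.4% higher) and 17.1% in sp7- cells (8.85% higher) in this contrast. Marker sums moved too: mesenchyme and osteoblast sums, given above, rose in both populations. The epidermal sums at 4 dpa were 21704 and 24706 CPM in sp7+ cells, against 82620 and 97141 CPM at 0 dpa. In sp7- cells they were 38848.2 and 48343.5 CPM, against 112159 and 122341 CPM. The part of these cell types in the changes was not tested.

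The difference between these changes, sp7+ minus sp7- cells, is given with no test for the same reason. It was -4.20 on the log2 scale for ncam1b (SE 0.70), 0.04 for cdh2, 0.80 for ctnna2 (SE 0.76) and -0.77 for ctnnd2a (SE 0.61), against a median over all genes of 0.12. The value of ncam1b lay between -4.91 and -3.62 in fits without single libraries and rests on the 3 reads of sp7- cells at 0 dpa. The osteoblast markers, whose sums rose in both populations as given above, had a median of -1.12 in the same difference. The median was -1.62 for the neuron markers. It was 0.21 for the 2 tested Schwann cell markers, of which sox10 had a positive and erbb3b a negative value. The part of these markers in the ncam1b value was not tested. Sorted cells and unsorted fins are separate tables that were scaled separately, so the levels of ncam1b in them were not compared.

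The rest of the adhesion machinery was read from lists of genes. Among 9 tested (of 14 listed) other catenins and cadherin-bound adaptors, jupa (a gamma-catenin) and vcla (vinculin) were called higher in fosl1a mutants than in wildtype at 4 dpa, by 0.61 (SE 0.18, adjusted p = 0.028) and 0.76 (SE 0.24, adjusted p = 0.0372), edgeR's quasi-likelihood test. For these lists the background at 4 dpa was the 12.7% of all genes called higher and 16.8% called lower. All 9 catenins and adaptors had a positive value there, as 46.2% of all genes did, from 0.55 for ctnna1 (alpha E-catenin) to 1.32 for jupb, with a median of 0.80 against -0.08 over all genes. Among 9 tested other cadherins (of 17 listed), cdh6 (0.57, SE 0.17, adjusted p = 0.0313) and cdh7 (0.92, SE 0.23, adjusted p = 0.0135) were called higher, 7 of 9 values were positive and the median was 0.57. cdh1, the E-cadherin gene, had -0.23 (SE 0.19, adjusted p = 0.405). Among 10 tested immunoglobulin-family genes (of 15 listed) l1camb was called higher (1.29, SE 0.34, adjusted p = 0.0171) and alcama (-0.42, SE 0.14, adjusted p = 0.0454) and mcamb (-1.03, SE 0.22, adjusted p = 0.00828) lower, with a median of -0.07. ncam1a, the paralogue of ncam1b, had -0.04 (SE 0.24, adjusted p = 0.907), and of 8 tested protocadherins (of 12 listed) pcdh7a was called higher (1.01, SE 0.26, adjusted p = 0.0156). In these lists 0 genes were called between genotypes at 0 dpa, where all 9 catenins and adaptors had a negative value (-0.65 to -0.03), as 52.5% of all genes did, and at 1 dpa chl1b was called lower, as 0.506% of all genes were.

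**Figure D4:**
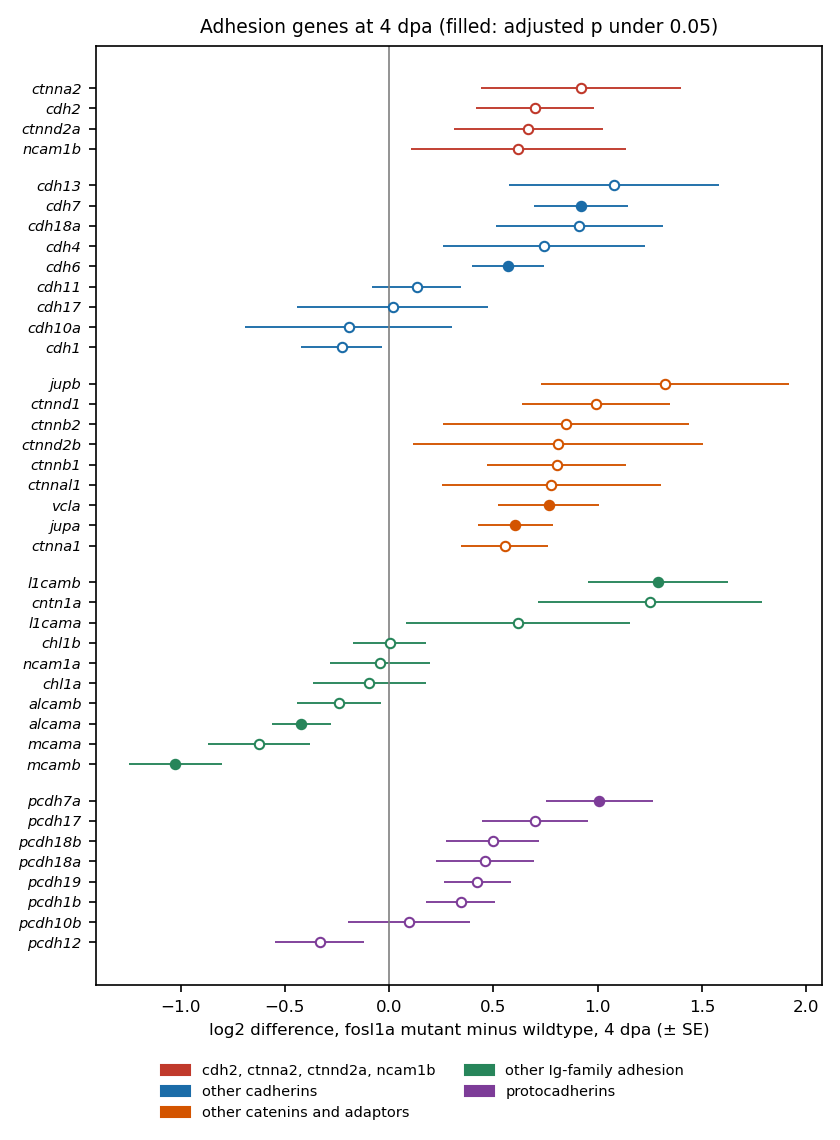
Log2 difference between fosl1a mutant and wildtype fins at 4 dpa for the 4 genes and 4 lists of other adhesion genes; points are edgeR estimates, bars standard errors, and filled points passed at an adjusted p under 0.05. All 9 other catenins and adaptors lie above 0 and 2 of them passed, and the immunoglobulin-family genes fall on both sides.

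In wildtype fins from 0 to 4 dpa, cdh17 was called higher (adjusted p = 0.0125) and vcla fell (by 2.19, SE 0.25, adjusted p = 0.00137) among these lists of cadherins and catenins, where 6.69% of all genes were called higher and 4.78% lower. In mutants cdh7 (1.59, SE 0.23, adjusted p = 0.0248), ctnnb1 (beta-catenin, 1.999, SE 0.34, adjusted p = 0.0143) and ctnnb2 (2.55, SE 0.62, adjusted p = 0.0407) rose, all by edgeR's quasi-likelihood test against 2-fold. cdh17 was called there too (adjusted p = 0.00388), with 0 reads in both mutant libraries of 0 dpa, and no fold is given for it. cdh1 had 0.08 in wildtype and -0.42 in mutants (adjusted p = 1 in each). In sorted cells cdh1 was lower at 4 dpa than at 0 dpa in both sp7+ and sp7- cells. In each population 6 of the 8 tested other cadherins were higher at 4 dpa. Of all genes, 54% had a value above 0 in sp7+ cells and 49.3% in sp7- cells. As for the members, these time changes in sorted cells are a description with no test. Between sp7+ and sp7- cells, 2 of 8 tested cadherins were called higher at 4 dpa and 0 lower, against 2 higher and 1 lower (cdh6) at 0 dpa. Of all genes 5.87% were called higher and 3.14% lower at 4 dpa, and 9.56% higher and 8.44% lower at 0 dpa. Of 9 catenins and adaptors 2 were called higher at each time, and of 11 immunoglobulin-family genes 4 higher and 0 lower at 4 dpa and 3 higher and 1 lower (alcamb) at 0 dpa. Among them ctnnd2b, another zebrafish copy of the delta 2 catenin gene, was higher in sp7+ than in sp7- cells by 3.40 (SE 0.45, adjusted p = 0.000935) at 4 dpa and by 3.37 (SE 0.48, adjusted p = 0.000944) at 0 dpa, and ncam1a by 3.48 (SE 0.36, adjusted p = 0.000126) at 4 dpa and by 4.52 (SE 0.40, adjusted p = 1.4e-05) at 0 dpa. cdh11, the osteoblast cadherin of the textbooks, was higher by 4.19 (SE 0.37, adjusted p = 2.41e-05) at 4 dpa and by 3.63 (SE 0.36, adjusted p = 4.64e-05) at 0 dpa. The polysialyltransferase genes st8sia2 and st8sia4, whose enzymes add polysialic acid to NCAM, were called at neither time. At 4 dpa the values were 1.87 (SE 0.62, adjusted p = 0.245) for st8sia2 and -0.49 (SE 0.26, adjusted p = 1) for st8sia4.

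The genes with the most similar courses were sought over the 20 libraries among 16981 genes with a symbol, by the root mean square (RMS) difference of log2 CPM after centring each gene within each experiment. For cdh2 they were nrp2b (0.319), lamb1a (0.339) and prickle1b (0.345), against a median of 1.47 over all genes. nrp2b (a neuropilin receptor) averaged 142 CPM in mutants and 95.5 CPM in wildtype at 4 dpa, and 22.0 CPM in mutants and 24.5 CPM in wildtype at 0 dpa. For ctnna2 they were ssh1b (0.446), lrfn1 (0.633) and spegb (0.648), with cdh2 in rank 30 (0.948) and ctnnd2a in rank 52 (1.00). For ctnnd2a they were NDST1 (0.620), pex5lb (0.714) and the type I collagen gene col1a1a (0.719). For ncam1b they were clu (0.662), notum1a (0.749) and CHPF (0.895). clu (clusterin) averaged 85.3 CPM in sp7+ cells and 39.2 CPM in sp7- cells at 4 dpa, and 94.0 CPM in sp7+ cells and 3.23 CPM in sp7- cells at 0 dpa. The distances of ncam1b to cdh2 (1.998), ctnna2 (2.36) and ctnnd2a (1.83) were near its median over all genes (1.95), and those between the other 3 genes were 0.948 to 1.08. Seen from cdh2, ctnna2 held only rank 1220 and ctnnd2a rank 2465 of 16981 genes. Seen from ctnnd2a, ctnna2 held rank 137 and cdh2 rank 247. These distances are descriptions across libraries that share their scaling.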

How the data were processed

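Adult zebrafish fins and sorted fin cells were measured by RNA-seq. Per the labels and methods, the authors aligned reads to GRCz10 with STAR 2.5.2a, kept unique alignments and deposited whole-number counts per gene over exons from featureCounts 1.5.0, without strand, counting a read for each gene it overlaps. Counts of overlapping or antisense genes therefore cannot be separated. From these counts, each table was filtered, scaled with TMM and fitted with edgeR 4.0.16 (R 4.3.3) over all its groups, with no block. Time changes in fins and sp7+ against sp7- cells were tested against a 2-fold change, genotype differences and their differences in change against none, with Benjamini-Hochberg adjustment over all tested genes and a threshold of 0.05. DESeq2 1.42.0, other scaling, no filter or a stricter one, replicate blocks, only the groups compared and leaving out libraries were alternatives. Standard errors were derived from the log2 change and its F statistic.

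Time changes in sorted cells, and their difference between populations, are given without a test because the tables that paired the symbols used them. The members and lists were chosen with earlier results of these data known. Named were the 4 members, fosl1a, part of the list genes that passed, and the 3 most similar genes of each member. For example, vcla and cdh7 were called higher in sp7+ than in sp7- cells at each time and are not named there. cdh1, ctnna1, jupb, ncam1a and the polysialyltransferases were named outside this rule after their values had been seen. Member symbols came from the study's gene tables and others also from a table of gene names. No gene length was used, so levels were not compared between genes. Each pair of sorted populations came from the same fins by the study's methods, and deviations of same-numbered libraries correlated at 0.197 (0 dpa) and 0.107 (4 dpa) across genes.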

Additional observations from a re-analysis of the deposited data

Results flagged for a closer look

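Both differences below were marked because the same change over time differed between groups by its own test. The change of ctnnd2a from 0 to 4 dpa was larger in fosl1a mutants than in wildtype fins by 2.17 on the log2 scale. This call was lost in 11 of the 12 fits that left out a library. Other adhesion genes called larger in mutants here were cdh7 (of 9 cadherins), ctnna1 (of 9 catenins and adaptors) and l1camb (of 10 immunoglobulin-family genes). Called smaller were alcama, alcamb and mcamb. Of all genes, 8.32% were called larger and 10.1% smaller. The change of cdh2 from 1 to 4 dpa was larger in mutants by 1.43. That comparison was added after the others had been seen, and its call was lost in 7 of the 12 fits. There cdh6, ctnnd1, chl1b and 4 of 8 protocadherins (pcdh1b, pcdh7a, pcdh17 and pcdh19) were called larger too, and mcamb smaller. Of all genes, 9.31% were called larger and 12.9% smaller. All 9 other catenins and adaptors had positive values in both differences, as 47% (4 against 0 dpa) and 44.9% (4 against 1 dpa) of all genes did.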

How the results depend on the processing

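With 2 libraries a group, depth differed between the members: ctnna2 had 0 to 29 reads per fin library at 0 and 1 dpa and cdh2 had 267 to 5968 reads per fin library, and the smallest difference detectable at this depth was not computed. Numbers of the 4 members called changed as follows. Between 0 and 1 dpa in wildtype 0 were called, and 1 with the replicate block, against no change and with only the groups compared. From 0 to 4 dpa in wildtype 2 were called, 0 with DESeq2, and 3 without the filter, against no change or with only the groups compared. From 1 to 4 dpa in wildtype 1 was called, and 3 against no change. Between genotypes 0 were called at 1 dpa, and 1 with only the groups compared. At 4 dpa 0 were called, but 1 with DESeq2, 1 without the filter and 3 with only the groups compared. For the difference in change from 0 to 4 dpa 1 was called, and 0 with the replicate block or only the groups compared. For that from 1 to 4 dpa, added later, 1 was called, and 2 with DESeq2, without the filter or with only the groups compared. Between sp7+ and sp7- cells 1 was called at 0 dpa, and 3 against no change. At 4 dpa 0 were called, but 1 with the replicate block within each time point, 2 against no change and 1 with only the groups compared. The median change of the 4 in sp7+ cells was 3.06 with that block. The difference in change of cdh2 between populations was -0.0321 with DESeq2 size factors and -0.0302 with DESeq2, against 0.04. Under the alternatives that kept all libraries, 408 values of single genes kept their direction and side of the threshold, 23 passed only under the alternative, 4 no longer passed, 2 changed sign and 3 without a test moved by more than their standard error. Of counts and medians 95 stayed within 1.5 times or within the spread, and 19 did not. In fits without a library 664 single-gene values kept both, 18 passed only there, 28 no longer passed, 20 changed sign and 6 moved. The cause was not tested.

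When single libraries were left out, members called ran from 0 to 1 (1 against 0 dpa), 0 to 3 (4 against 0 dpa) and 1 to 1 (4 against 1 dpa) in wildtype, and 0 to 0, 3 to 3 and 2 to 3 in mutants. They ran from 0 to 2 at 0 dpa, 0 to 1 at 1 dpa and 0 to 2 at 4 dpa between genotypes, and 0 to 0, 0 to 3 and 0 to 2 for the differences in change 1 against 0, 4 against 0 and 4 against 1 dpa. In sorted cells they ran from 1 to 2 at 0 dpa and 0 to 0 at 4 dpa, and the median change from 1.98 to 3.49 in sp7+ cells and 3.07 to 3.37 in sp7- cells. Values that changed sign had these ranges. Between genotypes at 0 dpa, they were -0.84 to 0.29 for cdh2, -0.15 to 0.44 for ncam1b and -6.44 to 0.35 for ctnna2, and for ctnnd2a at 1 dpa -0.13 to 0.93. In mutants from 0 to 1 dpa they were -0.49 to 0.66 for cdh2 and -0.82 to 6.01 for ctnna2, and from 0 to 4 dpa -0.40 to 0.49 for ncam1b. The differences in change ran from -1.04 to 0.11 for cdh2 and -1.78 to 5.04 for ctnna2 (1 against 0 dpa), -0.0133 to 0.87 for ncam1b (4 against 0 dpa) and -0.22 to 0.84 for ctnnd2a (4 against 1 dpa). In sorted cells ctnna2 ran from -0.25 to 0.24 at 4 dpa, and the differences in change from -0.47 to 0.86 for cdh2 and -1.37 to 0.32 for ctnnd2a. Fin libraries share only a replicate number: deviations of same-numbered mutant and wildtype libraries correlated at 0.180, 0.0839 and 0.0188 at 0, 1 and 4 dpa.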
